A study of Drosophila melanogaster with 3 samples.

Results

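Hedgehog signalling and the paired engrailed genes pattern every segment of the Drosophila embryo, and 8 genes at the core of that circuit were examined here for binding of the CG17361 protein. They are hh, ptc, smo, fu, Su(fu), ci, en and inv, taken by name from 18164 annotated genes, of which 13945 are protein-coding. The assay was ChIP-seq (chromatin immunoprecipitation followed by sequencing) in whole embryos aged 0 to 24 h. The embryos came from the line CG17361-GFP, whose flies carry a transgene that makes CG17361, a zinc finger protein, fused to eGFP, and the fusion was pulled down with an antibody against GFP. There were 3 biological replicates of this 1 group, so no condition was compared with another and no test between groups was possible. All libraries carry the tagged protein, control libraries were not analysed here, and a whole embryo mixes cells that do and do not express each of these genes.

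As background, Hedgehog is a secreted, lipid-modified ligand. Its receptor Patched keeps the membrane protein Smoothened inactive until ligand binds. Active Smoothened then signals through the kinase Fused, and the zinc finger factor Cubitus interruptus is no longer cut into a repressor. Suppressor of fused is a negative regulator that binds Cubitus interruptus. Engrailed is a homeodomain repressor that marks posterior compartment cells, where hh is transcribed, and invected is its neighbouring paralogue. ptc is itself a well-known transcriptional target of the pathway.

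The authors deposited ranked lists of candidate peaks and thresholded lists that keep peaks with an irreproducible discovery rate (IDR) of 0.01 or less, that is a −log10 IDR of 2 or more. Each replicate has its own lists, and the main set used here is the authors' conservative list, which compares replicates 1 and 3. On the 6 main chromosome arms the main set held 7804 peaks, and the replicates' own lists held 5942, 3797 and 5576 peaks, or 5105 ± 1147 (SD, n = 3). Replicate 2 therefore gave the shortest list, and the number of reads behind any peak is unknown. The signal score of each peak is the authors' own and has no stated scale, so signals from different lists are compared only as percentiles, meaning the percentage of peaks in the same list with a lower score. A gene is called promoter-bound where a peak summit lies within 500 bp of an annotated transcription start site (TSS), and its window is the gene body plus 10 kb to each side.

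In the main set 3 of the 8 genes were promoter-bound, namely ptc, smo and fu, against 22.3% of all annotated genes and 26.4% of protein-coding genes. Among protein-coding genes within 1.5 times the length of each, 24.5% to 38.5% were promoter-bound, depending on the gene. A peak lay in the window of 7 of the 8 genes, all but en, against 65.7% of all genes and 68.3% of protein-coding genes. With only 8 genes, both counts stand within 2 genes of the background shares. The windows held 34 peaks. Their median signal was 175 against 214 over all main-set peaks, and 12 of the 34 lay above the median of all peaks. The count was unevenly spread: ptc had 15 peaks, smo 8, hh, fu and ci 3 each, Su(fu) and inv 1 each, and en none.

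**Figure D1:**
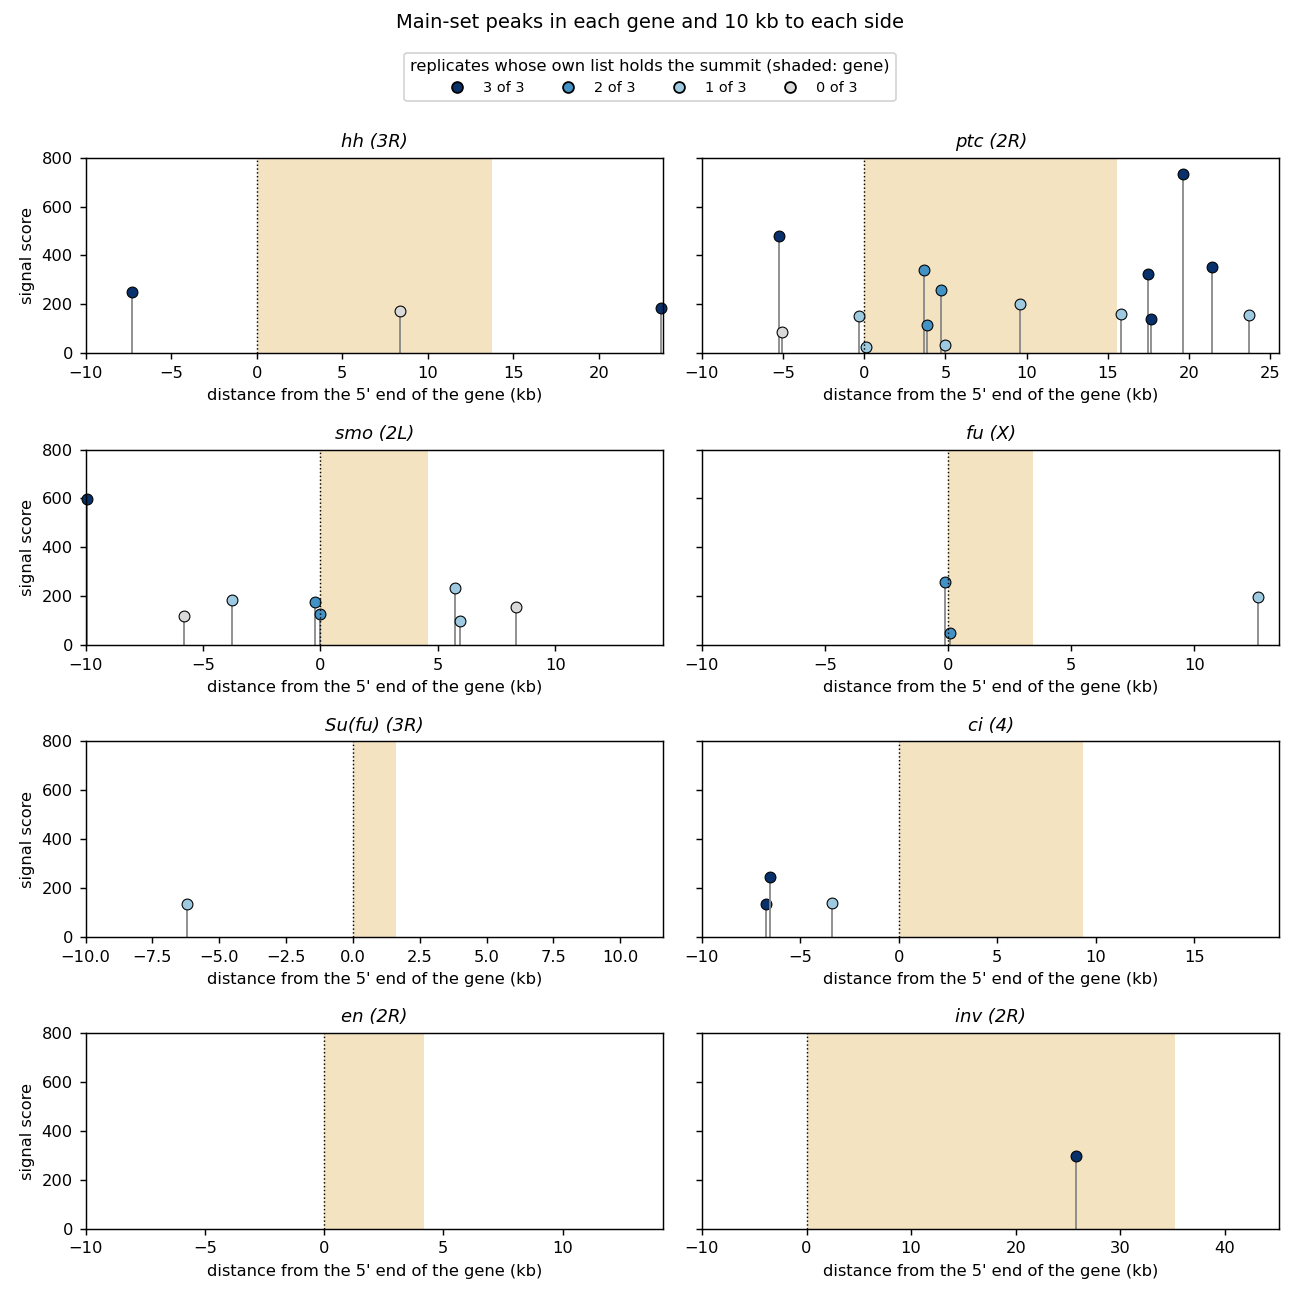
Main-set peaks along each gene, with the distance from the gene's 5′ end in kb in the direction of transcription on the horizontal axis and the signal score on the vertical axis. Shading marks the gene, each point is 1 peak, and its colour gives the number of replicates whose own list covers the summit. The 15 points at ptc lie from 5251 bp upstream to 23725 bp downstream of its TSS and reach 735, while the en panel is empty.

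The sequences under 4 summits are shown as examples of the DNA at the centre of the peaks: at hh, the peak upstream of the gene and the one in its intron, at fu, the promoter peak, and at ci, the upstream peak. Each is 101 bases, plus strand, from the release 6 genome (dm6), centred on the summit, and capitals mark runs of 8 or more A or T.
hh, upstream, chr3R:23149149-23149249: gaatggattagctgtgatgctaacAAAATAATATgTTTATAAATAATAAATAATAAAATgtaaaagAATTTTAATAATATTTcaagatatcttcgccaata
hh, intron, chr3R:23133499-23133599: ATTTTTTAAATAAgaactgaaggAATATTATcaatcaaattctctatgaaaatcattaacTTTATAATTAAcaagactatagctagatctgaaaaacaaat
fu, promoter, chrX:18657563-18657663: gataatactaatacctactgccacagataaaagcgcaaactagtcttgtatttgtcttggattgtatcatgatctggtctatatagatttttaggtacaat
ci, upstream, chr4:63516-63616: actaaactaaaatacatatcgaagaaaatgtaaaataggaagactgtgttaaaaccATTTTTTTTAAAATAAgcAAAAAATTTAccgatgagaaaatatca
Both hh sequences and the ci sequence are rich in A and T, with 19.8%, 20.8% and 22.8% G or C. The fu promoter sequence holds no such run and has 32.7% G or C.

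The ligand gene hh (FBgn0004644, chr3R:23128169-23141906, minus strand) had no promoter peak in any thresholded list. Its best ranked promoter candidate in the main set stayed at a −log10 IDR of 1.31, below the threshold of 2. The peak upstream of hh, 7293 bp from the TSS in DNA between genes, had a main-set signal of 252 and a percentile of 60.3. It was called in every replicate, with signals of 90.6, 56.9 and 87.2 in replicates 1, 2 and 3, and the replicate summits fell within 40 bp of each other. Within the replicates' own lists it ranked lower, at a mean percentile of 26.2 ± 11.7 (SD, n = 3).

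A further hh peak lay in an intron 8357 bp downstream of the TSS with a main-set signal of 175. No replicate's own list holds it, although all 3 ranked lists have a candidate there. The remaining window peak, at 186, sat 23648 bp from the hh TSS at the promoters of CenB1A and Rassf. All 3 replicates covered it, with signals of 117, 71.6 and 104. It belongs by position to those neighbours rather than to hh.

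The receptor gene ptc (FBgn0003892, chr2R:8649649-8665223, plus strand) had the most main-set peaks of the 8 genes, at 15. Of all 13945 protein-coding genes, 24 had 15 or more peaks in the window, and the median gene had 2. Among 1026 protein-coding genes within 1.5 times the length of ptc, the most was 13. The replicates' own lists gave 10, 7 and 8 peaks in the ptc window, which 11, 10 and 19 of those genes of like length reached. Several main-set intervals overlap, and after overlapping intervals were merged ptc kept 10 peaks, a number that 3 genes of like length reached. The lists comparing replicates 1 with 2 and 2 with 3 held 5 and 4 peaks in the ptc window. Its number of peaks thus varied over 3 times between lists.

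**Figure D2:**
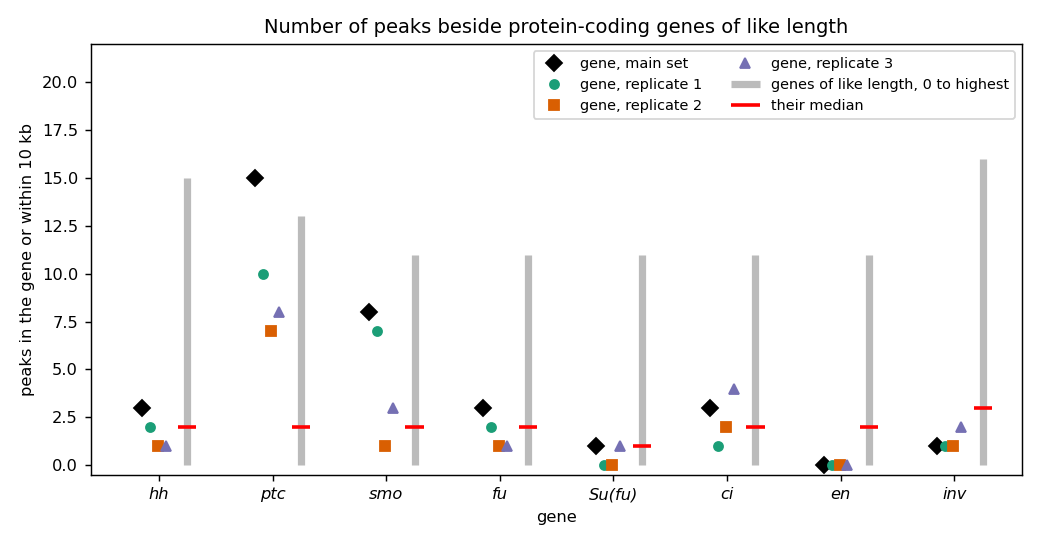
Number of peaks in each gene or within 10 kb of it, in the main set and in each replicate's own list, with a grey bar from 0 to the highest number among protein-coding genes within 1.5 times its length and a red line at their median. ptc, at 15 in the main set and 7 to 10 in the replicates, lies above the main-set median of 2 in all of them, and en stays at 0.

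The ptc promoter itself carried weak peaks. One summit 335 bp upstream of the TSS had a main-set signal of 154, a percentile of 27.7, and was called in replicate 1 alone, at 73.0. The other, 79 bp downstream, had the lowest signal of all 34 peaks, at 24.6, and was called in replicate 3 alone, at 65.3. In replicate 2 the best promoter candidate had a −log10 IDR of 0.766 and was not called.

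Upstream of ptc, 5251 bp from the TSS, lay a strong peak with a main-set signal of 478 and a percentile of 88.2. Replicates 1, 2 and 3 gave 159, 93.7 and 209 there, with summits within 8 bp of each other, the closest of the 11 peaks found in all 3 replicates. Its percentile within the replicates' lists averaged 74.0 ± 16.3 (SD, n = 3). Of the peaks with ptc as the gene of the nearest TSS, it was the one with the highest signal.

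Inside ptc, 5 summits lay in introns. The strongest, 3660 bp from the TSS, had a signal of 341 and was called in replicates 1 and 3, at 129 and 170. The next, at 4745 bp and 258, was called in the same replicates, at 109 and 116. Another, at 9569 bp and 200.2, was called in replicate 1 alone, at 94.5. None of the intron summits was called in replicate 2, whose ranked list holds a weaker candidate at each.

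Past the 3′ end of ptc, 6 more peaks lay at or within Acsl, which encodes a long-chain acyl-CoA synthetase. They include the strongest peak of any of the 8 windows, 19656 bp from the ptc TSS in an intron of Acsl, with a main-set signal of 735, rank 257 of 7804. Replicates 1, 2 and 3 gave 278, 183 and 265, and its percentile in their lists was 93.8 ± 2.62 (SD, n = 3). Other Acsl peaks covered in every replicate had main-set signals of 323, 352 and, beside the first of these, 142. The strongest signal in the ptc window thus lies within another gene, and which gene, if either, these sites act on was not measured.

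smo (FBgn0003444, chr2L:277582-282167, plus strand), which encodes the signal-transducing membrane protein Smoothened, sits among closely packed genes. Of its 8 window peaks, all 8 were promoter summits, most of them at neighbours. The promoter that smo shares with CG17078 had signals of 176 and 127 at summits 209 and 7 bp upstream of the smo TSS. Replicate 1 gave 77.2 and replicate 3 gave 74.0 for the strongest interval over both summits, and replicate 2 had no ranked candidate there. The smo promoter was therefore bound in 2 of the 3 replicates' lists.

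The strongest smo window peak, at 597, lay 9920 bp upstream at the CG17075 promoter. Replicates 1, 2 and 3 gave 203, 165 and 218 there, all between the percentiles of 87.3 and 89.8. This site is near the edge of the window, and the other promoters with peaks, those of Dus1, CG11555 with mbm, CG11601 and CG3625, had signals between 97.2 and 233. Per 100 kb the smo window held 32.5 peaks and the ptc window 42.2, against 6.0 on arm 2L and 5.45 on arm 2R. Of 2603 protein-coding genes of like length 48 had at least as many peaks as smo. In the replicates' own lists the smo window held 7, 1 and 3 peaks, and 56, 1637 and 732 genes of like length had at least as many. Its high rank was thus seen in replicate 1 but in neither replicate 2 nor replicate 3. The lists comparing replicates 1 with 2 and 2 with 3 held 4 and 1 peaks there.

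**Figure D3:**
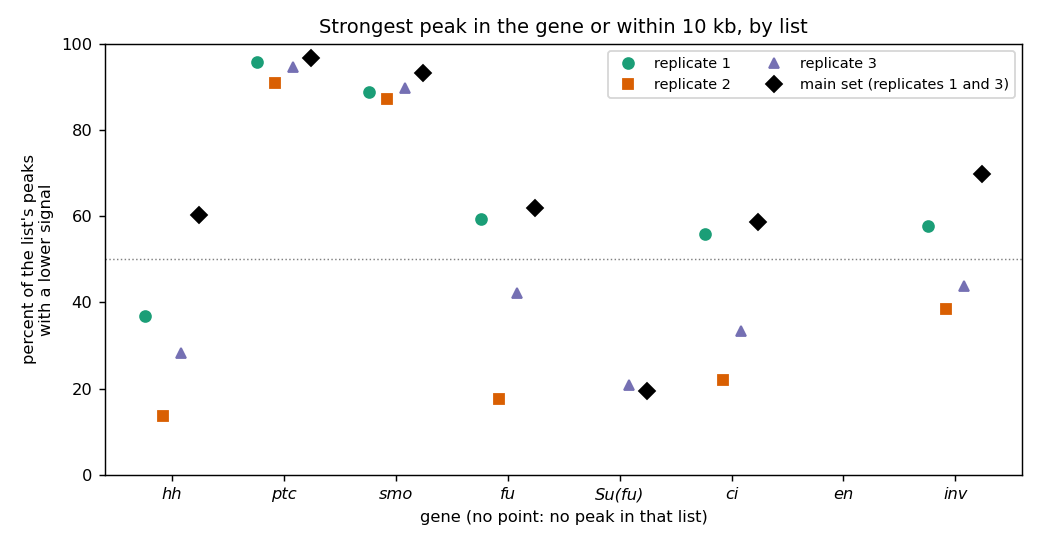
Percentage of peaks in the same list with a lower signal than the strongest window peak of each gene, by gene, for replicates 1, 2 and 3 and the main set. The ptc and smo windows stay above 87 in every list shown, whereas hh, fu, ci and inv spread from 13.7 to 69.7 and Su(fu) lies near 20.

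The percentiles of the middle group depend on the list. In the list comparing replicates 2 and 3 they were 30.1 for hh, 32.5 for fu, 27.8 for ci and 44.7 for inv, against 60.3, 62.0, 58.6 and 69.7 in the main set. In the list comparing replicates 1 and 2 they were 43.5, 45.6, 41.4 and 56.2 in the same order. The signals themselves did not change, at 252, 260, 244 and 298 in each of these lists. The main set held 7804 peaks, the list of replicates 1 and 2 5319 and that of replicates 2 and 3 4157. The hh peak ranked 3098, 3005 and 2905 in them.

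Of the cytoplasmic members, fu (FBgn0001079, chrX:18657755-18661204, plus strand), which encodes a serine/threonine kinase, had the strongest promoter peak of the 8 genes. Its summit, 142 bp upstream of the TSS, had a main-set signal of 260 and a percentile of 62.0, and it also lies within 500 bp of a CG6659 TSS. Replicates 1 and 3 called it at 118 and 100.2. Replicate 2 held it at 45.7 with a −log10 IDR of 1.90, just under the threshold. fu was the one member whose promoter was called in the lists comparing replicates 1 with 2 and 2 with 3, in which 15.7% and 13.5% of all genes were promoter-bound. A shoulder 68 bp downstream had a signal of 49.4, and an intergenic peak at 199, 12569 bp downstream of the TSS, was called in replicate 2 alone, at 59.9.

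Su(fu) (FBgn0005355, chr3R:12689873-12691468, minus strand), which encodes a negative regulator that binds Ci, had 1 peak in its window. That summit lay 6221 bp upstream at the Past1 promoter, with a signal of 136 and a percentile of 19.5, and was called in replicate 3 alone, at 80.8. The Su(fu) promoter had ranked candidates in all 3 replicates with −log10 IDR values of 1.45, 0.233 and 1.38. None passed the threshold, so no called peak lay within 500 bp of its TSS.

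ci (FBgn0004859, chr4:47710-57041, minus strand), the gene of the transcription factor that ends the pathway, lies on the small, largely heterochromatic chromosome 4. Its strongest window peak, 6525 bp upstream, had a main-set signal of 244 and a percentile of 58.6. Replicates 1, 2 and 3 gave 113, 57.2 and 91.7 for an interval that also covers a second summit, of 133 in the main set, 6726 bp upstream. A weaker peak, at 140, lay 3375 bp upstream in the antisense RNA gene asRNA:CR43957 and was called in replicate 3 alone, at 73.2.

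The ci promoter was called in some lists only. Its best candidates had −log10 IDR values of 1.99, 0.764 and 2.40 in replicates 1, 2 and 3 and 1.70 in the main set. Replicate 3 called it at a signal of 80.7, with the summit 56 bp upstream, and so did the list from pooled data, at 102. In the lists comparing replicates 1 with 2 and 2 with 3 the best candidates reached 1.20 and 1.07. These candidates were not at the site called in replicate 3. That of replicate 1, just under the threshold, had a signal of 17.5 and lay 357 bp downstream of a ci TSS. That of replicate 2 lay 251 bp downstream. In those lists and in the main set the best candidates lay farther than 56 bp from a TSS. These values therefore do not show how near the site called in replicate 3 came to the threshold elsewhere.

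**Figure D4:**
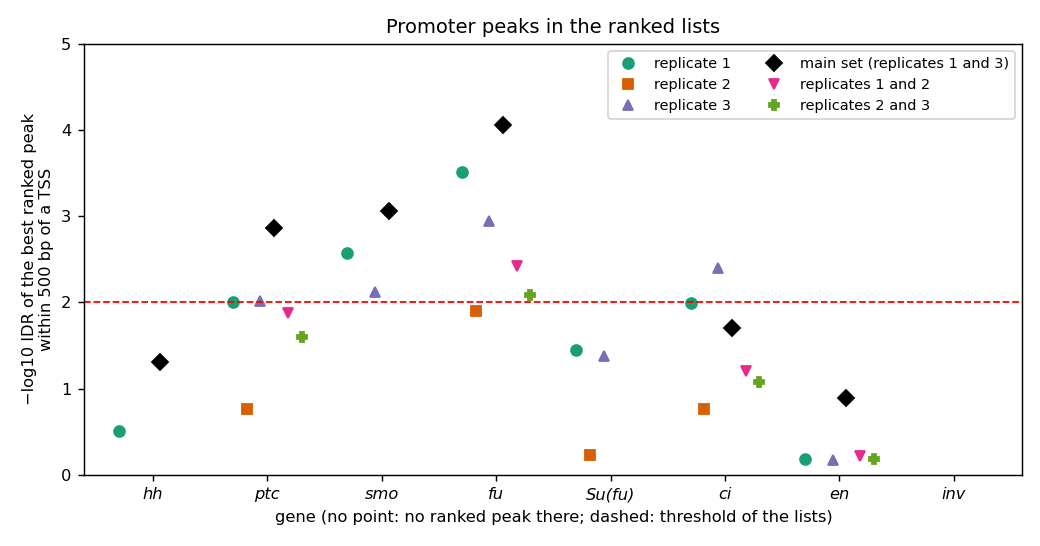
The −log10 IDR of the best ranked candidate within 500 bp of a TSS, by gene, in each replicate's list and in the lists comparing pairs of replicates, the main set being the list of replicates 1 and 3. The dashed line at 2 is the authors' threshold. fu lies above it in every list but that of replicate 2, at 1.90, and hh, Su(fu) and en lie below it throughout, with no candidate at inv.

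en (FBgn0000577, chr2R:11524006-11528210, minus strand) had no peak in its window in any of the thresholded lists. Of 2791 protein-coding genes within 1.5 times its length, 748 or 26.8% likewise had none in the main set. The best ranked promoter candidate in the main set had a signal of 46.8 and a −log10 IDR of 0.893. The nearest main-set peak was 25361 bp upstream of the TSS, with a signal of 170.3. No peak near en was therefore detectable at the authors' threshold.

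inv (FBgn0001269, chr2R:11474465-11509695, plus strand) had 1 main-set peak, in an intron 24500 bp from the nearest inv TSS, with a signal of 298 and a percentile of 69.7. Replicates 1, 2 and 3 gave 116, 75.9 and 102, with summits within 66 bp. Genes of like length had a median of 3 peaks. No ranked list held a candidate at the inv promoter. The windows of en and inv overlap but share no peak, and this intron peak is 27675 bp from the nearest en TSS.

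Across replicates, 3, 0 and 4 members were promoter-bound in replicates 1, 2 and 3, or 2.33 ± 2.08 (SD, n = 3). The share of all genes was 19.3%, 13.4% and 18.3%. Replicate 3 added ci to ptc, smo and fu, and replicate 2 called none of the 8. A peak lay in the window of 6, 6 and 7 members, or 6.33 ± 0.577 (SD, n = 3), against 61.9%, 53.3% and 60.2% of all genes. The promoter count lay above the share of all genes in the main set and replicates 1 and 3, and below it in replicate 2. Among genes of like length the main-set shares were higher than that of all genes, at 24.5% to 38.5%. The lists comparing replicates 1 with 2 and 2 with 3 had 1 of 8 each, close to their shares of 15.7% and 13.5%. Each of the lists comparing replicates 1 with 2 and 2 with 3 had a window peak at 6 members, against 57.2% and 52.6% of all genes. The pooled list had 4 promoter-bound members and 7 with a window peak, against 22.8% and 67.8% of all genes. The promoter calls thus moved more between replicates than the window calls.

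Of the 34 main-set peaks, 11 were covered by every replicate's own list, 7 by 2, 12 by 1 and 4 by none. That is 32.4% in every replicate, against 36.9% over all main-set peaks. By location 16 were at promoters, 12 in introns and 6 between genes, or 47.1%, 35.3% and 17.6%, against 46.2%, 34.6% and 16.9% of all peaks. In the share covered by every replicate and in location, the peaks around the Hedgehog and engrailed genes resemble the whole list. The share covered by 1 replicate alone was larger than in the whole list, and that covered by none was smaller. Of the 34, 10 have one of the 8 genes at the nearest TSS. No summit lay in an annotated transposable element, and the share of all peaks for this is not available. The ci summits lay 186 to 689 bp from such an element, whereas the next nearest of the 34, at inv, was 26365 bp away.

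Base composition dipped at these summits. Within 50 bp of the summit the 34 peaks had a mean of 32.3% G or C, where windows centred 250 bp away on either side averaged 42.3%, and all main-set peaks had 32.4% and 42.8%. In the replicates' own lists the member peaks had 32.0% ± 1.51 at the summit and 43.2% ± 1.06 in the flanks (SD, n = 3). The dip was deepest at hh, with 25.7% at the summit and 49.8% in the flanks. It was shallow at fu, with 36.6% and 38.4%, and at ci, with 26.1% and 28.7%. Each of these genes has a pair of summits so close that a flank window of either covers the other. At fu they lie 142 bp upstream and 68 bp downstream of the TSS, and at ci 6525 and 6726 bp upstream. Such pairs also occur at ptc, as at 5251 and 5051 bp upstream, and at smo, as at 209 and 7 bp upstream. There the summits and flanks had 33.1% and 43.3% at ptc and 34.9% and 45.2% at smo. Whether the spacing bears on the dip was not tested. A run of 8 or more A or T lay within 50 bp of 28 of the 34 summits, or 82.4%, against 79.4% of all peaks.

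**Figure D5:**
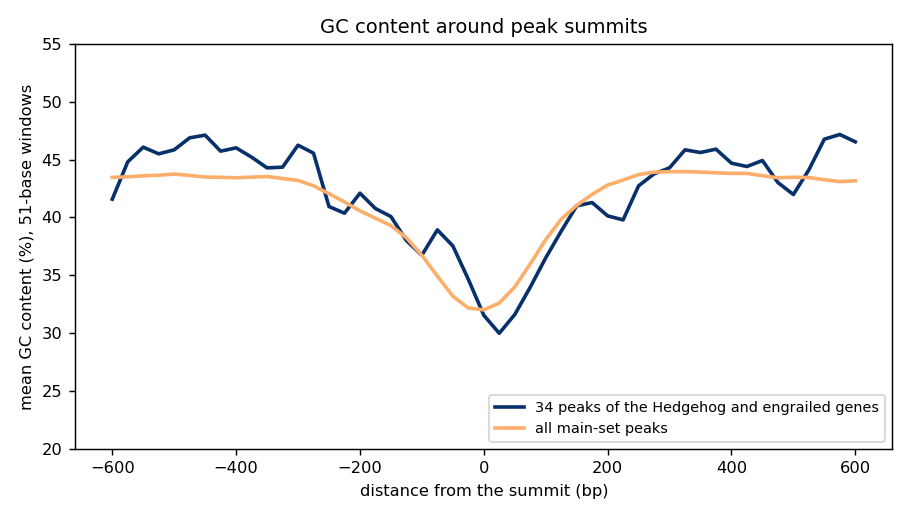
Mean G or C content in 51-base windows against distance from the summit in bp, for the 34 peaks of the Hedgehog and engrailed genes and for all main-set peaks. Both curves dip near the summit, to 30.0% at 25 bp for the 34 peaks and to 32.0% at 0 bp for all peaks.

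Short words bound by known factors were counted on both strands within 50 bp of the summits. The Ci words GGGTGGTC and TGGGTGGTC were in none of the 34 peaks, and in 0.0128% and 0% of all peaks. TAATTA, a homeodomain word of the kind Engrailed binds, was in 3 of 34, or 8.82%, against 11.3% of all peaks. GAGAG, bound by GAGA factor, was in 2 of the 34 against 8.35% of all peaks, and the Pho core GCCAT in 3 of the 34 against 12.7%. The BEAF-32 core CGATA, which the DRE word TATCGATA contains, was in 6, or 17.6%, against 13.9% of all peaks, and 4 of the 6 were in the smo window. These are matches of letters only, and a word not found says nothing of the factor.

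Beyond the 8 genes, 46 further genes of the pathway, its targets and Engrailed's partners were listed by role. In the main set 20 of them, or 43.5%, were promoter-bound, against 22.3% of all genes and 26.4% of protein-coding genes. In replicates 1, 2 and 3 the number was 20, 9 and 15, or 31.9% ± 12 (SD, n = 3), against 19.3%, 13.4% and 18.3% of all genes. The list was drawn up with earlier results of these data known, so its share is a description. Some of the promoter summits named below also lie within 500 bp of a TSS of another gene. They are those of botv with CG15117, dlp with RecQ5, boi with z, slmb with CG5793 and Cul1 with CG12159. The others are Smurf with CG30105, bib with lncRNA:CR13130 and exd with eIF5 and CG46312.

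Among genes for release and spread of the ligand, 4 of 8 were promoter-bound. They were the heparan sulphate glycosyltransferase genes sotv, ttv and botv, at 475, 165 and 143, and the glypican gene dlp, at 270.2. disp, whose product releases the ligand from cells, was not. Of 5 genes in reception, 3 were bound, namely the co-receptor genes ihog and boi, at 144 and 149, and Cow, whose product is known as a carrier of Wingless, at 176. No replicate's own list called the ihog peak.

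Of 12 transduction genes, 9 were promoter-bound. The kinase genes gish, sgg, dco and CkIalpha had signals of 1084, 736, 229 and 96.0, and gish had a percentile of 99.7, with signals of 346, 297 and 417 in replicates 1, 2 and 3. Genes of ubiquitin ligases and their subunits, rdx, Cul1, Smurf, Cul3 and slmb, had 559, 443, 235, 194 and 135. The replicates' lists called gish, sgg, dco, rdx and Cul1 in every case, and CkIalpha in none. cos, which encodes the kinesin-like scaffold of the pathway, was not promoter-bound.

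Of 16 target genes, 2 were promoter-bound, bib at 647 and srp at 145, and the segment polarity gene wg and the ligand gene dpp were not. The srp peak was in no replicate's own list. CycE, not counted as bound, had a main-set peak of 904 at 520 bp upstream of its nearest TSS. Of 5 partner and flanking genes, gro, which encodes the co-repressor Groucho, was bound at 705 and exd, which encodes a homeodomain cofactor, at 316. hth, which encodes another cofactor, had 20 window peaks but none within 500 bp of a TSS. As hth is 132008 bp long, its window is far longer than that of ptc. Its count was not set beside genes of like length.

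For each gene with a peak, the 3 protein-coding genes of like length most similar in peak number and strongest signal over 4 lists, by Euclidean distance on the log2 scale, were found. Nearest to hh were scrt, Npl4 and uzip, at distances of 0.44 to 0.66, and to ptc CG42327, Rgl and wts, at 0.81 to 0.86. Nearest to smo were Axud1, dpr19 and stv, to fu CG31365, CG11149 and CG14006, and to Su(fu) CG2898, CG12617 and CG12035. Nearest to ci were Fmr1, tey and Su(var)2-HP2, and to inv lbl, Octbeta2R and Cht6. The nearest match of Su(fu), which has 1 weak peak, was at 0.042, that of ci at 0.72 and that of ptc, the farthest, at 0.81.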

How the data were processed

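CG17361-GFP was profiled by ChIP-seq in 3 replicate libraries of whole embryos, from chromatin sonicated to 200 to 800 bp, per the labels. The authors deposited peak lists on dm6 for each replicate, for the 3 pairs of replicates and for pooled data. Each line has a signal score of unstated scale and, in the ranked lists, a −log10 IDR deposited by the authors. No source used here names the peak caller or the read depth. Series-level lists were assigned to replicate pairs by matching their lines to the replicates' lists, and all of them share peaks made from all replicates.

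Python 3.11.15 and matplotlib 3.10.9 were used. Each interval was counted once, at the summit of its strongest line. A replicate holds a peak where its thresholded interval covers the main-set summit. Genes are those of Ensembl release 115 without transposable elements, and bases come from the RefSeq release 6 genome. The scripts were checked on simulated peaks. The 8 genes, the wider list, the words and the alternatives were chosen with earlier results of these data known. Named genes include the 8, their peaks' nearest or host genes, the wider list's promoter-bound genes and the 3 genes most like each. Others are named where they share a promoter or were listed but not bound. Values are descriptions without a test, means are over replicates, and no interval is given because counts are unknown. Nothing says whether the replicates share a culture beyond being called biological replicates.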

Additional observations from a re-analysis of the deposited data

How the results depend on the processing

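Peak presence around the genes varied less than promoter calls did. In turn, 1 replicate was left out of the IDR comparison, while the peaks and their signals still came from all replicates. Promoter-bound genes then numbered 1 to 3, genes with a window peak 6 to 7 and window peaks 10 to 34. The lists without replicate 1 and without replicate 3 each kept fu as the only promoter-bound gene, and leaving out replicate 2 gives the main set itself. Mean G or C at the summits was 26.3% to 32.3% and the median percentile of the strongest peaks 38.6 to 62.0. Peaks covered in every replicate left 0 promoter-bound genes, 11 window peaks, 27.2% G or C and a median percentile of 26.9. An IDR of 0.001 or less left 16 window peaks, 29.6% and 42.1, and the ranked list without a threshold gave 6 promoter-bound genes and 154 window peaks. The gene body alone gave 4 genes with a peak and 9 peaks, flanks of 5 kb gave 22 peaks, and peaks whose nearest TSS is one of the genes numbered 10. G or C was 30.7% in the pooled list, 34.4% within 100 bp of the summit and 29.2% after overlapping intervals were merged, an alternative chosen after seeing the data that left 24 peaks. The share of all genes is given above for the thresholded lists but is not available for the other settings. Gene counts under those settings therefore have no background beside them. Percentiles were taken within the list of each setting, so they can fall while the signal of a peak stays the same. The cause of these changes was not tested. The promoter-bound count lay above the share of all genes in the main set and close to it without replicate 1 and without replicate 3. In replicate 2 alone it lay below. Among genes of like length the main-set shares were 24.5% to 38.5%, so the main-set count does not stand apart from them. No paired analysis was possible because there is 1 group. Read depth is unknown, so a missing peak is missing at the authors' threshold only.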
